A study of Mus musculus with 10 samples.

Results

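The complement genes followed here were C1qa, C1qb, C1qc, C1ra, C1s1, C2, C4b, C3 and Cfb, a fixed list of 9 genes out of the 25700 counted per mouse, found through their Ensembl gene identifiers. They were measured by mRNA sequencing of the tibialis anterior (TA) muscle 6 days after an injection of cardiotoxin (CTX), a snake venom toxin that kills myofibers and starts regeneration. The 10 mice were 12 weeks old, male and C57BL/6. The 5 Pax7Cre mice, whose genotype field reads wild type, carried only the Cre allele, and the 5 miR-501KO mice are given as miR-501 -/- in the genotype field and as Pax7CremiR-501fl/Y in the series text, so both groups carried Pax7Cre. The Pax7 promoter drives Cre in muscle progenitors, so under that design cells outside this lineage, such as macrophages and fibroblasts, keep the miRNA gene. The deletion of miR-501 was not checked in these libraries.

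Complement is a cascade of plasma and tissue proteins that marks debris and dying cells for uptake. C1q, a complex of the C1qa, C1qb and C1qc chains, recognises its target and activates the proteases C1r and C1s, which cleave C4 and C2 to build the classical C3 convertase. Cleaved C3 coats the target and, together with factor B, the product of Cfb, forms the alternative convertase that amplifies the reaction. In most tissues macrophages are the main source of C1q, whereas fibroblasts and other stromal cells make much of the local C1r, C1s and C3, and the liver supplies most of the plasma pool.

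All 9 complement genes were read in every mouse and passed the filter on low counts, and for none was a genotype difference beyond the spread between mice detected. In the edgeR quasi-likelihood fit over 14410 genes, 0 of the 9 had a Benjamini-Hochberg adjusted p under 0.05, beside 0% of all genes tested. At an unadjusted p under 0.05, 0 of the 9 were called, beside 1.05% of all genes (0.382% higher and 0.666% lower in miR-501KO). The 3 C1q genes had log2 fold changes near 0 and the other 6 had values below 0, with a median over the 9 genes of -0.13 beside -0.0042 over all genes tested. Without Pax7Cre mouse 2 all 9 values were below 0 and these medians were -0.033 and -0.0029. Across the 10 mice the C1q genes varied together and correlated negatively with the other 6, and the negative correlations passed no adjusted threshold by r or rho without Pax7Cre mouse 2, and none by r without miR-501KO mouse 1.

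Sequences of the upstream regions were taken from a table of RefSeq promoters (GRCm38.p6) in which 5 of the 9 genes were matched, each as 250 bases before to 50 bases after an annotated start. C1qb and C1qc are shown because they varied together, C1ra because it varied against them, and C3 because it had the largest genotype difference. The promoters were searched on both strands for GAGGAA, the core bound by the macrophage factor PU.1, for TTCNNNGAA, the site of STAT factors, for the interferon-stimulated response element (ISRE), and for TATAAA, the TATA box. Capitals mark the matches, and in the C1qc and C1ra lines TTCCTC is GAGGAA on the other strand.
C1qb, chr4:136886151-136886450, minus strand: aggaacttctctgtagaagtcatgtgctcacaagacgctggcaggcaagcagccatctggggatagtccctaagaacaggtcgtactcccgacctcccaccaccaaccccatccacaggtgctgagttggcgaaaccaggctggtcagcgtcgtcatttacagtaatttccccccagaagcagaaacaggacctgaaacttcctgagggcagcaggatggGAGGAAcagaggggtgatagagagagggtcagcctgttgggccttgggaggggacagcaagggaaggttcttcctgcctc
C1qc, chr4:136892865-136893164, minus strand: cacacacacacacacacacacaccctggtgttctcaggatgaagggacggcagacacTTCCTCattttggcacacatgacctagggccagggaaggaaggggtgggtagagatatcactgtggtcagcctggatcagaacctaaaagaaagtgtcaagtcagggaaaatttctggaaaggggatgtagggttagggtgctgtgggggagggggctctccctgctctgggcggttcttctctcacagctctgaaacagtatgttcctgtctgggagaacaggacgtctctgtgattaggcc
C1ra, chr6:124512371-124512670, plus strand: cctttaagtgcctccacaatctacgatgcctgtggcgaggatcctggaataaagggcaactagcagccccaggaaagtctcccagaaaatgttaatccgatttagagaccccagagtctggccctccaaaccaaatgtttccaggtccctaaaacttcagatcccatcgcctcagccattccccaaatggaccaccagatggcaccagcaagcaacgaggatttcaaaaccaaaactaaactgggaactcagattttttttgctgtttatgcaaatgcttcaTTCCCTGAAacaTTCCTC
C3, chr17:57228087-57228386, minus strand: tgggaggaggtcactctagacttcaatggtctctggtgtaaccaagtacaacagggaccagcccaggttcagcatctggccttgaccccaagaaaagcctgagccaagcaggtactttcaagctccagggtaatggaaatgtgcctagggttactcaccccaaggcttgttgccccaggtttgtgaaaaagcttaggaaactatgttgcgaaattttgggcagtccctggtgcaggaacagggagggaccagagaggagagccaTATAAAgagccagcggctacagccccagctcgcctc

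GAGGAA stood 30 bases before the annotated start of C1qb, 193 bases before that of C1qc and 44 bases after that of C1ra. TTCNNNGAA occurred in C1ra alone, 32 bases after the start, and TATAAA in C3 alone, 14 bases after the start, while neither promoter of C1s1 held a match. The ISRE occurred in none of the 5. Among 32851 mouse promoters of the same length, 28.3% held GAGGAA, 8.30% TTCNNNGAA, 3.44% the ISRE and 13.6% TATAAA, so these matches are a description of the letters only.

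The mature strand miR-501-3p is shown because it is the product of the deleted gene. RefSeq places it on chromosome X of GRCm38 from 7241270 to 7241291, minus strand, and capitals mark its seed, bases 2 to 8.
miR-501-3p: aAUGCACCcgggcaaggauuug
The complement of that seed, GGTGCAT, occurred in no annotated 3′ untranslated region of the 9 complement genes, whose longest such regions had between 43 and 599 bases. Over all 21020 genes with an annotated 3′ untranslated region, 1364 (6.49%) held it.

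Between 18609222 and 24753258 reads were counted per mouse, and the 9 complement genes took 0.207% to 0.299% of them. C2, with the fewest reads, had 275 to 383 counts per mouse, so counting error weighed most on it. Mitochondrial genes took 6.59% to 14.0% of the counts, highest in Pax7Cre mouse 2, which also stood apart on the principal component that held 33.0% of the variance. The summed markers of mature fibers were highest in that mouse too, at 66137 CPM (counts scaled to a common library size) against 23437 to 49996 in the others. Pax7Cre mouse 4 had the lowest mitochondrial share and the lowest mature fiber sum, and lay at the other end of that component. In whole muscle, fewer cells of a type and less RNA per cell cannot be told apart.

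The levels of the 9 genes were compared per length, as FPKM (CPM divided by the annotated exon length in kilobases). C1qb was highest, with a mean FPKM of 661 ± 88.2 (SD, n = 10), followed by C1qa with 589 ± 76.5 and C1qc with 281 ± 43.9. C1s1 came next at 66.0 ± 10.9 FPKM, then Cfb at 39.8 ± 8.68 and C3 at 36.7 ± 16.8. C1ra had 19.6 ± 3.05 FPKM, C4b 9.96 ± 2.05 and C2 4.11 ± 0.358. The order C1qb, C1qa, C1qc, C1s1 held in 10 of 10 mice, although the ranges over mice of C1qb and C1qa overlapped, as did those of C1s1 and Cfb and of C3 and C1ra. Cfb was above C3 in only 7 of 10 mice, so the places of these neighbours do not differ beyond their spread. The 3 C1q genes supplied 60.1% to 82.3% of the counts of the 9 genes, lowest in Pax7Cre mouse 2 and highest in Pax7Cre mouse 1.

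**Figure D1:**
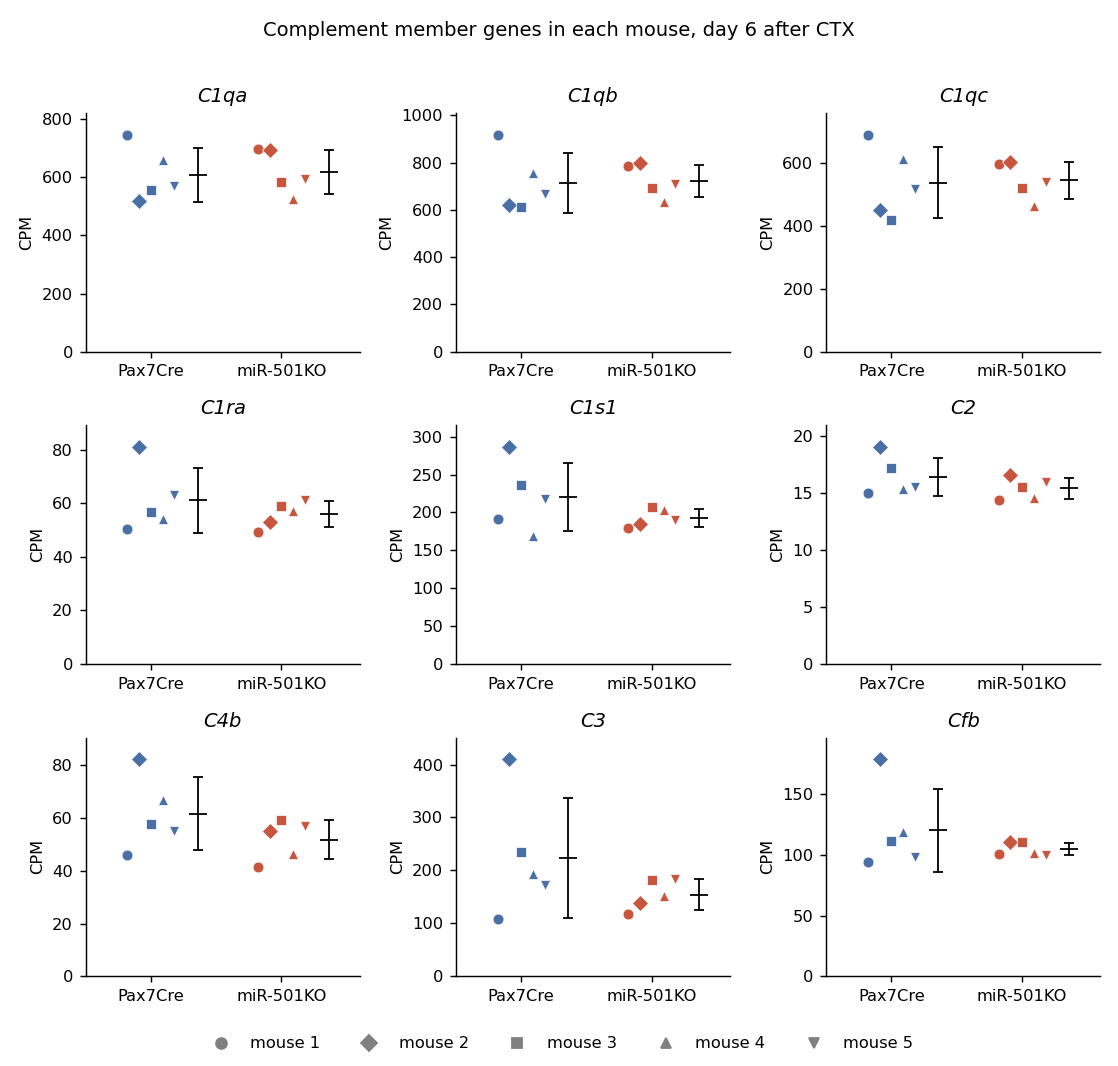
CPM of each complement gene in each mouse by genotype, with mean and SD as a bar beside the points and the marker shape giving the mouse number. The genotypes overlap for all 9 genes, and Pax7Cre mouse 2 (diamond) is the highest of the 10 mice for C1ra, C1s1, C2, C4b, C3 and Cfb, with C3 at 410.0 CPM.

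The 3 C1q chains are encoded side by side on the minus strand of chromosome 4 of GRCm38, C1qb from 136880129 to 136886187, C1qc from 136889804 to 136893065 and C1qa from 136895917 to 136898803. C1qa had 745, 516, 554, 657 and 568 CPM in Pax7Cre mice 1 to 5 and 697, 693, 581, 524 and 595 CPM in miR-501KO mice 1 to 5. C1qb had 918, 621, 613, 757 and 668 CPM in Pax7Cre and 784, 797, 695, 634 and 708 CPM in miR-501KO. C1qc had 691, 452, 419.8, 613 and 517 CPM in Pax7Cre and 597, 605, 522, 463 and 542 CPM in miR-501KO. For each chain the miR-501KO mice lay within the range of the Pax7Cre mice, and Pax7Cre mouse 1 was the highest of all 10. The log2 fold change of miR-501KO over Pax7Cre was 0.024 (95% confidence interval -0.25 to 0.29) for C1qa, 0.016 (-0.26 to 0.29) for C1qb and 0.019 (-0.29 to 0.32) for C1qc. The exact two-sided permutation test of log2 CPM gave p = 0.817 for each of the 3 genes, where the smallest p possible for 5 mice against 5 is 0.00794. The sign of these differences turned when 1 of several Pax7Cre or miR-501KO mice was left out.

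C1qb and C1qa kept nearly the same proportion in every mouse, with 1.11 to 1.23 counts of C1qb per count of C1qa, not scaled for length, and a coefficient of variation of 3.38%. C1qc per C1qa ranged from 0.758, in Pax7Cre mouse 3, to 0.933. The genotypes had a mean C1qb to C1qa ratio of 1.17 ± 0.048 and 1.17 ± 0.035 (SD, n = 5 each, exact permutation p = 1.00). Adjusted over the 6 ratios computed among the members, the exact permutation p was 1.00 for each.

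C1ra and C1s1 encode the serine proteases that C1q activates, and they lie next to each other on chromosome 6, C1ra from 124512405 to 124523443 on the plus strand and C1s1 from 124530345 to 124542359 on the minus strand. C1ra had 50.5, 81.1, 56.8, 54.4 and 63.1 CPM in Pax7Cre mice 1 to 5 and 49.2, 53.0, 58.9, 57.1 and 61.3 CPM in miR-501KO mice 1 to 5. C1s1 had 192, 286, 236, 169 and 217 CPM in Pax7Cre and 179, 185, 207, 203 and 189.5 CPM in miR-501KO. Both were highest in Pax7Cre mouse 2, and the groups overlapped, with 1 miR-501KO mouse below every Pax7Cre mouse for C1ra and 0 for C1s1. The log2 fold change was -0.13 ± 0.12 (SE) for C1ra, with an exact permutation p of 0.468. For C1s1 it was -0.19 ± 0.12, with an exact permutation p of 0.262. Without Pax7Cre mouse 2 these values were -0.0095 for C1ra and -0.081 for C1s1. Without Pax7Cre mouse 4 the log2 fold change of C1s1 was -0.27, with an unadjusted edgeR p of 0.0282 and an adjusted p of 0.996. The near copies C1rb and C1s2 had at most 1 and 16 counts per mouse, and 576 of the 3129 exon bases of C1s1 are shared with Gm16567 on the opposite strand.

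C4b and C2 encode the parts of the classical C3 convertase and lie on the minus strand of chromosome 17, C4b from 34728380 to 34743882 and C2 from 34862604 to 34898265. C4b had 46.0, 82.3, 57.8, 67.0 and 55.0 CPM in Pax7Cre mice and 41.6, 54.9, 59.2, 46.4 and 57.0 CPM in miR-501KO mice. C2 had 15.0, 19.0, 17.2, 15.4 and 15.5 CPM in Pax7Cre and 14.4, 16.6, 15.6, 14.6 and 16.0 CPM in miR-501KO. Pax7Cre mouse 2 was again the highest for both, and 1 miR-501KO mouse for C4b and 2 for C2 lay below every Pax7Cre mouse. The log2 fold change of C4b was -0.25 ± 0.15 (SE), with an exact permutation p of 0.222, and that of C2 was -0.090 ± 0.087, with an exact permutation p of 0.310. Without Pax7Cre mouse 1, C4b had a log2 fold change of -0.34 at an unadjusted edgeR p of 0.0301 and an adjusted p of 1.00, and without Pax7Cre mouse 2 it had -0.13. For C2 the value without Pax7Cre mouse 2 was -0.033. The paralog C4a was not analysed here, so reads that C4b may share with it were not assessed.

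C3, the central component on which all activation routes converge, lies on the minus strand of chromosome 17 from 57203970 to 57228136 and varied most among the 9 genes. It had 108, 410.0, 234, 193 and 172 CPM in Pax7Cre mice 1 to 5 and 117, 139, 181, 151 and 184 CPM in miR-501KO mice 1 to 5. The mean was 224 ± 114 CPM in Pax7Cre and 154 ± 28.7 CPM in miR-501KO (SD, n = 5 each), and every miR-501KO mouse lay within the Pax7Cre range. The highest of the 10 mice was 3.80-fold above the lowest, both of them Pax7Cre. The log2 fold change was -0.53 (95% confidence interval -1.13 to 0.065) with an adjusted edgeR p of 1.00, and the exact permutation p was 0.294. It was -0.20 without Pax7Cre mouse 2. Without Pax7Cre mouse 1 it was -0.71, with an unadjusted edgeR p of 0.0113 and an adjusted p of 1.00.

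Cfb encodes factor B, the catalytic subunit of the alternative convertase, and lies beside C2 from 34856374 to 34862518. It had 93.9, 179, 111, 119 and 98.0 CPM in Pax7Cre mice and 101, 110.4, 110.4, 102 and 100.4 CPM in miR-501KO mice. The 5 miR-501KO mice lay close together, with a coefficient of variation of 4.89% against 28.5% in Pax7Cre, and inside the Pax7Cre range. The log2 fold change was -0.20 ± 0.15 (SE), with an exact permutation p of 0.484, and -0.014 without Pax7Cre mouse 2. The read-through gene Gm20547 on the same strand shares 2246 of the 2825 exon bases of Cfb and 1656 of the 3872 of C2. Its own count was 94.8% to 96.8% of the summed counts of C2 and Cfb in each mouse, so reads of C2 and Cfb cannot be told apart from those of Gm20547.

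The spread between mice was larger in Pax7Cre than in miR-501KO for 9 of the 9 complement genes, a count chosen after the values were seen. The SD of log2 CPM was 0.70 against 0.28 for C3 and 0.37 against 0.070 for Cfb. The same held for 79.2% of all genes tested. Without Pax7Cre mouse 2 it held for 8 of the 9 genes and for 69.6% of all genes, so the count of members stands near the background of each.

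**Figure D2:**
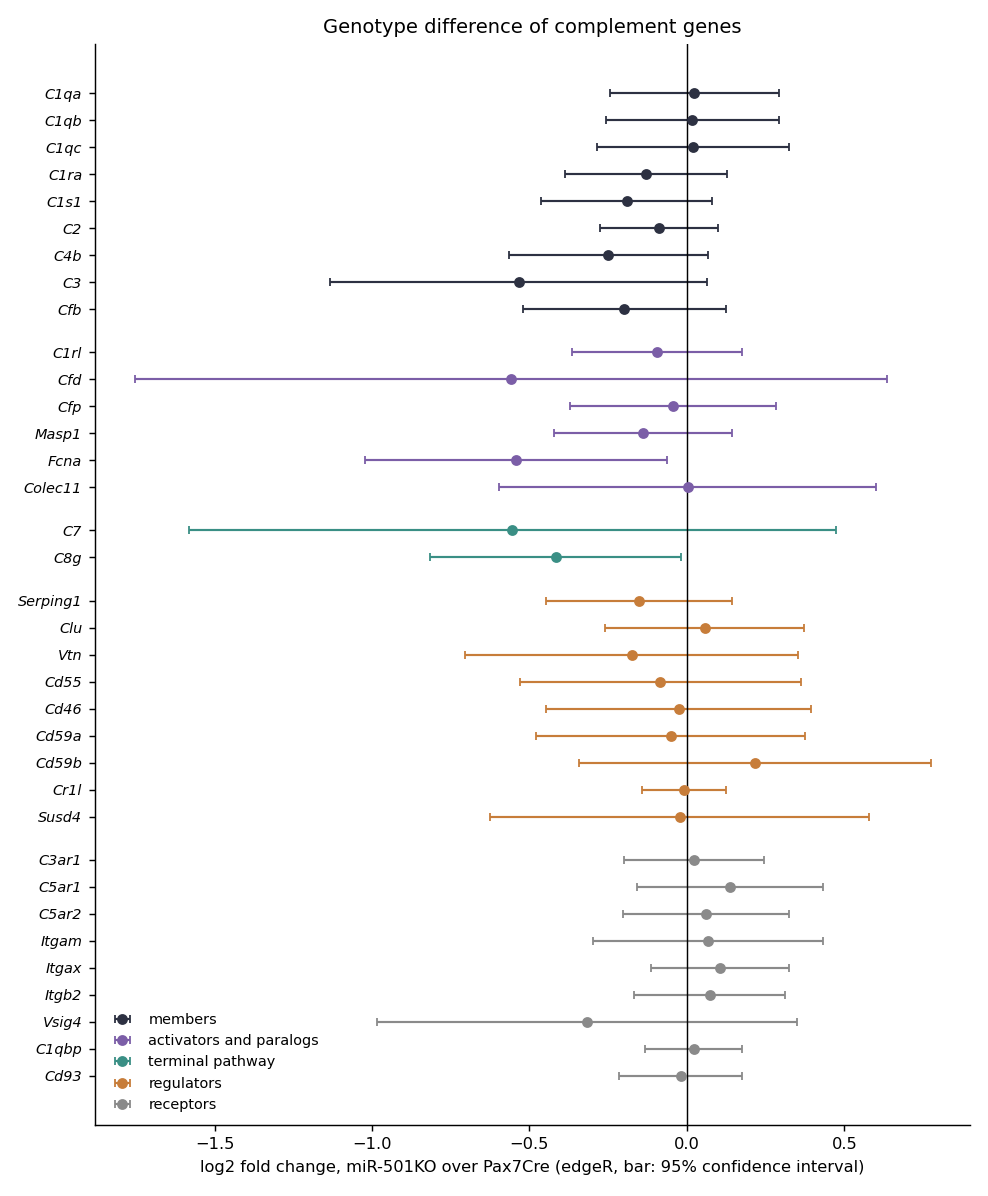
Log2 fold change of miR-501KO over Pax7Cre (points) with 95% confidence interval (bars) for the 9 complement members and the 26 other complement genes that passed the filter, grouped by role. The intervals of all 9 members cross 0, and those of Fcna and C8g lie below 0 before adjustment.

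Across the 10 mice the 9 genes fell into 2 sets that moved in opposite directions, a pattern computed over all 36 pairs after the values were seen. Within C1q, the 3 pairs had Pearson's r between 0.932 and 0.970 and Spearman's rho between 0.915 and 0.964, with permutation p from 1e-05, the smallest that 100000 resamples can give, to 0.000640. Among C1ra, C1s1, C2, C4b, C3 and Cfb, all 15 pairs had a positive r, from 0.567 between C1s1 and C4b to 0.902 between C4b and C3. Of these 15, 12 had an adjusted permutation p under 0.05 for r and 2 for rho. Between the C1q genes and the other 6, all 18 pairs had a negative r, from -0.768 for C1qa with C1ra to -0.384 for C1qc with C4b. Of these 18, 8 had an adjusted permutation p under 0.05 for r and 4 for rho. CPM values of 1 library share its depth and composition, so the pairs are not independent of each other. The share of pairs of other genes that pass is not given here, so these counts have no background beside them.

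Each mouse was then left out in turn, an alternative chosen after seeing the data. All 3 C1q pairs passed in each of the 10 settings, by r and by rho. By r, 0 to 14 of the 15 pairs of the other genes passed (0 without Pax7Cre mouse 2, 5 without miR-501KO mouse 1 and 10 or more without any other mouse), and 1 to 3 passed by rho. Across the sets, 0 to 11 of the 18 pairs passed by r, with 0 without Pax7Cre mouse 2 and 0 without miR-501KO mouse 1, and 0 to 5 by rho. Without Pax7Cre mouse 2, the highest mouse for the 6 non-C1q genes, the C1q pairs had r from 0.921 to 0.966, with 3 of 3 at an adjusted permutation p under 0.05. The 15 pairs of the other genes then had r from -0.141 to 0.799, with 14 positive, 0 past the adjusted threshold for r and 1 for rho (C4b with C3, rho = 0.883, adjusted permutation p = 0.0277). The 18 pairs between the sets stayed negative, from -0.788 to -0.119, with 0 past the adjusted threshold for r or rho, where the smallest unadjusted permutation p was 0.0131. Without miR-501KO mouse 1 these 18 pairs also stayed negative, with r from -0.733 to -0.312. With the values centred within each genotype, 3, 13 and 8 pairs passed by r in the same 3 sets, and 3, 2 and 3 by rho. With the 2 mice farthest from the median left out of each pair, r was at least 0.892 within C1q, between -0.475 and 0.790 among the other 6, and between -0.830 and -0.082 across the sets.

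**Figure D3:**
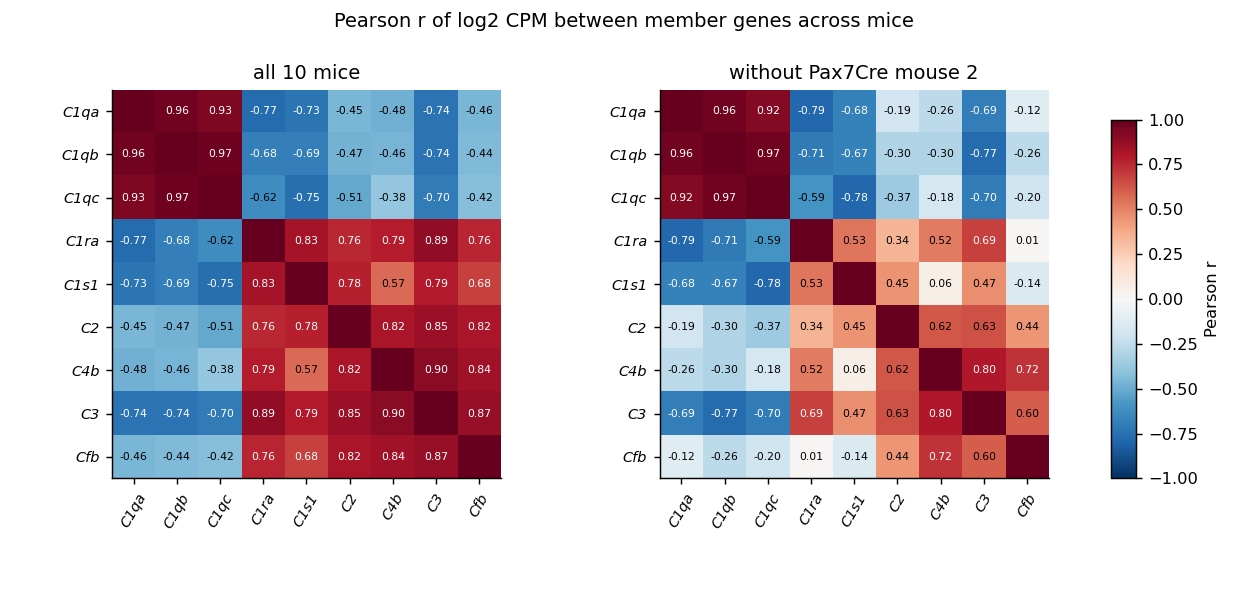
Pearson r of log2 CPM between each pair of the 9 complement genes, over all 10 mice (left) and over 9 mice without Pax7Cre mouse 2 (right). The block of C1qa, C1qb and C1qc keeps r of at least 0.921 in both panels, while the block of the other 6 genes drops from a lowest r of 0.567 to -0.141.

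The levels were then set beside the markers of the cells that could hold these transcripts. The 12 macrophage markers all passed the filter, and their summed level was 3767 to 5238 CPM in Pax7Cre and 3999 to 4617 CPM in miR-501KO, lowest in Pax7Cre mouse 2 and highest in Pax7Cre mouse 1. Lyz2, the lysozyme gene of macrophages and other myeloid cells, made up 59.5% to 67.3% of this sum. The study also reports Lyz2, Cd74 and C1qc, as a macrophage signature, in a cluster of sorted muscle progenitors from miR-501KO mice. Which cells held these transcripts in whole muscle was not tested. C1qa followed the macrophage sum over the 10 mice with r = 0.913 (permutation p = 6.00e-05, adjusted over 18 relations 0.00108) and rho = 0.915 (permutation p = 0.000540, adjusted 0.00972). C1qb had r = 0.888 (permutation p = 0.000770, adjusted 0.00693) and rho = 0.794 (permutation p = 0.00866, adjusted 0.0520). C1qc had r = 0.784 (permutation p = 0.00591, adjusted 0.0355) and rho = 0.758 (permutation p = 0.0149, adjusted 0.0671). All 3 chains were highest in Pax7Cre mouse 1, the mouse with the highest macrophage sum. Without the 2 mice farthest from the median marker sum, r was 0.876, 0.722 and 0.574 for the 3 chains. With each mouse left out in turn, C1qa passed the adjusted threshold for r in 10 of 10 settings, C1qb in 9 (not without Pax7Cre mouse 1) and C1qc in 2. By rho, C1qa passed in 5 of the 10 settings, C1qb in 1 and C1qc in 1. Over these settings r lay between 0.890 and 0.947 for C1qa, between 0.776 and 0.980 for C1qb and between 0.656 and 0.943 for C1qc. Without Lyz2 in the sum, an alternative chosen after seeing the data, r was 0.857 for C1qa, 0.819 for C1qb and 0.846 for C1qc, with adjusted permutation p of 0.0143, 0.0162 and 0.0143.

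Over the 10 mice the other 6 genes had negative r with the macrophage sum, and C1ra passed the adjusted threshold. For C1ra, r was -0.805 (permutation p = 0.00885, adjusted 0.0398) and rho was -0.879 (permutation p = 0.00169, adjusted 0.0152), with r = -0.867 without the 2 farthest mice. It did not pass by r with the mean log2 CPM of the markers (r = -0.685, adjusted permutation p = 0.0687), where it passed by rho (-0.794, adjusted permutation p = 0.0286), or in 6 of the 10 settings with 1 mouse left out, over which r lay between -0.879 and -0.789. By rho it passed in 5 of those 10 settings. Without Lyz2 in the sum it had r = -0.744 (adjusted permutation p = 0.0414), and C1s1 then passed too, at r = -0.829 (adjusted permutation p = 0.0143). For C3, r was -0.742 (permutation p = 0.0191, adjusted 0.0687) and rho was -0.600 (permutation p = 0.0740, adjusted 0.222), with r = -0.410 without the 2 farthest mice. C1s1, C2, C4b and Cfb had r between -0.597 and -0.450 with adjusted permutation p of 0.202 or more. Without the 2 farthest mice, r was -0.552 for C1s1 and -0.179 for C4b, and it turned positive for C2 (0.073) and Cfb (0.336). With the values centred within each genotype, C3 also passed, at r = -0.848 and an adjusted permutation p of 0.0158.

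**Figure D4:**
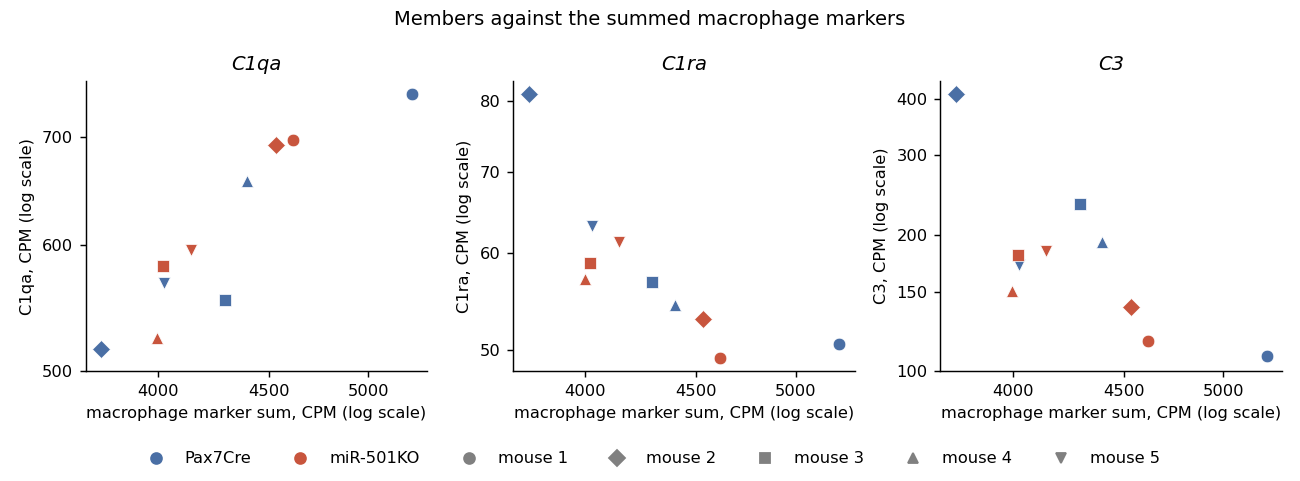
CPM of C1qa, C1ra and C3 (vertical, log scale) against the summed CPM of 12 macrophage markers (horizontal, log scale), 1 point per mouse, with colour for genotype and shape for mouse number. C1qa rises with the sum (r = 0.913), C1ra falls with it (r = -0.805), and for C3 (r = -0.742) Pax7Cre mouse 2 stands at 410.0 CPM with the lowest sum.

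No complement gene passed with the summed level of the 9 fibroblast markers, where r lay between -0.405 for Cfb and 0.052 for C4b and the smallest adjusted permutation p was 0.435. Without Pax7Cre mouse 2, C4b (r = 0.897) and C3 (r = 0.866) passed by r, each with an adjusted permutation p of 0.0130, and not by rho (adjusted permutation p of 0.0620 each). Without the 2 mice farthest from the median fibroblast sum, r lay between -0.245 for C1qb and 0.900 for C4b. That sum, 18201 to 26053 CPM, is mostly collagen, and without Col1a1, Col1a2 and Col3a1 it was 1297 to 2210 CPM, highest in Pax7Cre mouse 2. With this shorter list, an alternative chosen after seeing the data, C1s1 had r = 0.895 (permutation p = 0.000290, adjusted 0.00261) and rho = 0.867 (permutation p = 0.00254, adjusted 0.0152), with r = 0.752 without the 2 farthest mice. C1qc then had r = -0.769 (permutation p = 0.00956, adjusted 0.0287) and rho = -0.770 (permutation p = 0.0124, adjusted 0.0446), with r = -0.508 without the 2 farthest mice. Of the 18 relations, 4 passed with the full list and 7 with the shorter one. The third added call was C3 with the macrophage sum, whose r and unadjusted p were the same as above and whose adjusted permutation p moved to 0.0490 with the other relations of the family. Hepatocyte markers were at or near 0, with a sum of at most 0.212 CPM in any mouse and 0 of 6 past the filter, and Alb, the main plasma protein of the liver, was among these 6. Of the 8 neutrophil markers 4 passed the filter, and the sum over all 8 of 28.8 to 37.1 CPM was 84.7% to 95.5% Csf3r, a receptor that macrophages and monocytes also express, with each of the other 7, among them S100a8, S100a9 and Ly6g, at 1.95 CPM or less in every mouse. Adipocyte markers summed to 3.44 to 47.8 CPM, at most 67.2% of it Adipoq. The part of neutrophils and adipocytes in the levels of the complement genes was not tested.

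The genes whose log2 CPM was most like that of a member over the 10 mice were taken from the 14410 tested, as a description. For C1qa they were Max, with r = 0.974, Fcer1g, the signalling chain of Fc receptors on myeloid cells, with 0.966, and Uap1l1, with 0.965. Each lay above the r of C1qa with the macrophage sum, 0.913. The share of all genes that pass with the marker sums is not given here. For C1s1 they were Bche, which encodes butyrylcholinesterase, with r = 0.968, Lyrm9 with 0.946 and Mpp5 with 0.944. For C3 they were Scara5, a scavenger receptor for ferritin, with r = 0.935, Htra3, a secreted serine protease, with 0.920, and Xpnpep2 with 0.914.

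Of 44 other complement genes in the count files, 26 passed the filter, 10 with a positive and 16 with a negative log2 fold change and a median of -0.025, which was 0.022 without Pax7Cre mouse 2 and 0.0037 without miR-501KO mouse 2. None had an adjusted p under 0.05, and 2 were lower and 0 higher in miR-501KO by the unadjusted threshold of 0.05, beside 0.666% and 0.382% of all genes tested. Among activators and paralogs, 6 of 13 passed, with 1 above and 5 below 0. Fcna, the pattern recognition molecule ficolin A, had 9.54, 4.22, 5.23, 7.66 and 4.46 CPM in Pax7Cre mice and 3.52, 4.77, 3.96, 4.08 and 5.13 CPM in miR-501KO mice, with 3 of the 5 miR-501KO mice below every Pax7Cre mouse. Its log2 fold change was -0.54, with an adjusted edgeR p of 1.00 and an exact permutation p of 0.103. Without Pax7Cre mouse 1, the highest mouse, it was -0.34. Cfd, the adipocyte-derived protease that cleaves factor B, ranged from 1.08 to 21.4 CPM with a log2 fold change of -0.56 ± 0.55 (SE). With 1 mouse left out that value ran from -0.94 (without miR-501KO mouse 2) to -0.27 (without miR-501KO mouse 1), and it was -0.31 without Pax7Cre mouse 2 and -0.32 without Pax7Cre mouse 3. Cfd and the adipocyte marker sum were both lowest in miR-501KO mouse 1, at 1.08 and 3.44 CPM, and the part of adipocytes in this result was not tested. Cfp, or properdin, which stabilises the alternative convertase, had a log2 fold change of -0.044 ± 0.15, and of -0.14 (without Pax7Cre mouse 2) to 0.042 (without Pax7Cre mouse 4) with 1 mouse left out.

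Of the 7 terminal pathway genes, whose products form the membrane pore, only C7 and C8g passed the filter. C8g had 1.43, 1.69, 1.64, 1.40 and 1.67 CPM in Pax7Cre and 0.881, 1.18, 1.46, 1.32 and 1.02 CPM in miR-501KO, with 4 of the 5 miR-501KO mice below every Pax7Cre mouse. Its log2 fold change was -0.42, with an exact permutation p of 0.0238, not adjusted over genes, and an adjusted edgeR p of 1.00. These values rest on few reads, 31 to 35 counts per Pax7Cre mouse and 22 to 35 per miR-501KO mouse. C7 had a log2 fold change of -0.55 ± 0.48 (SE), and of 0.083 without Pax7Cre mouse 2, the highest mouse at 3.43 CPM.

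Among regulators, 9 of 14 passed, with 2 above and 7 below 0. Serping1, the inhibitor of C1r and C1s, had a log2 fold change of -0.15 ± 0.14 (SE), which was -0.016 without Pax7Cre mouse 2 and -0.23 without Pax7Cre mouse 1. Clu, or clusterin, had 0.057 ± 0.15, and Cd59a and Cd59b, which block pore assembly, had -0.051 ± 0.20 and 0.22 ± 0.26. Without Pax7Cre mouse 2 these values were 0.20 for Clu, 0.17 for Cd59a and 0.43 for Cd59b, and without Pax7Cre mouse 4 they were -0.039, -0.16 and 0.096. Cd59a was also above 0 without miR-501KO mouse 2, at 0.029, and Cd59b was lowest without Pax7Cre mouse 3, at 0.075.

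Of the 10 receptor genes, 9 passed the filter, with 7 above and 2 below 0. The anaphylatoxin receptors C3ar1 and C5ar1 had log2 fold changes of 0.023 ± 0.10 (SE) and 0.14 ± 0.14. Itgb2 and Itgax, the chains of an integrin that binds cleaved C3, had 0.072 ± 0.11 and 0.11 ± 0.10. With 1 mouse left out these values ran from -0.034 (without miR-501KO mouse 1) to 0.098 (without Pax7Cre mouse 1) for C3ar1, from 0.038 (without Pax7Cre mouse 2) to 0.27 (without Pax7Cre mouse 4) for C5ar1, from 0.022 (without miR-501KO mouse 1) to 0.15 (without Pax7Cre mouse 4) for Itgb2 and from 0.036 (without Pax7Cre mouse 3) to 0.16 (without Pax7Cre mouse 1) for Itgax. None of the 9 was called. Without Pax7Cre mouse 4, C5ar1 and Itgam had log2 fold changes of 0.27 and 0.26, with unadjusted edgeR p of 0.0291 and 0.0463 and an adjusted p of 0.996.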

How the data were processed

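RNA of TA muscle from 5 Pax7Cre and 5 miR-501KO mice was sequenced from stranded poly(A) libraries as 100 bp single-end reads. The authors deposited raw read counts per Ensembl gene for each mouse, without normalization. The submitters' processing notes name STAR, featureCounts, R 3.5.1 and the build GRCm38.p5, and the methods name an annotation called ENCODE release 91. The strand setting and the handling of reads on several genes are not given in the sources used here. Of 25700 genes, 25664 matched GENCODE M21, which gave symbols, exon lengths, overlaps and 3′ untranslated regions.

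The groups come from the sample titles, and replicates are separate mice. With R 4.3.3 and edgeR 4.0.16, TMM factors were computed, filterByExpr (minimum count 10, minimum total 15) kept 14410 genes, and genotypes were compared by the quasi-likelihood test, with p adjusted over all of them by Benjamini-Hochberg. CPM used TMM-scaled totals, and FPKM here is CPM per kilobase of exon. Single genes and ratios had the exact two-sided permutation test over mice. Correlations of log2 CPM over the 10 mice had permutation tests with 100000 resamples (scipy 1.17.1). With 1 mouse left out, all orders of the remaining mice were used. The p values were adjusted over 18 relations with marker sums or 36 pairs of members. The fit was tested on simulated data with known changes. Named genes were every member, other complement genes at an unadjusted p under 0.05, the 3 largest changes in each direction, 9 further complement genes and, for C1qa, C1s1 and C3, the 3 genes most like each.

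The members, gene lists and marker lists were chosen with earlier results of these data known. Pair correlations, also with each mouse left out, the count of SDs, the fibroblast list without collagens and the macrophage list without Lyz2 were chosen after the values were seen. Alternatives were DESeq2 1.42.0 size factors and Wald test, upper quartile factors, other filters, edgeR's likelihood ratio, robust and newer quasi-likelihood tests, a replicate block, leaving out each mouse, other marker scores, and centring by genotype. Libraries of each genotype differed by more than counting noise (the lowest chi-square, divided by its degrees of freedom, was 9.47), so none was counted as a copy. The single cell data of the study were not used here, and 1 complement gene of the lists, besides C4a, is not reported here and was left out of the counts.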

Additional observations from a re-analysis of the deposited data

Results flagged for a closer look

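Within 1 genotype, 3 values stood far from the other 4 mice, by Dixon's gap test at its 95% level. The C1s1 to C1ra ratio was 3.09 in miR-501KO mouse 5, against 3.49 to 3.64 in the other miR-501KO mice. Serping1 had 263 CPM in miR-501KO mouse 1, against 299 to 309 in the others. C3ar1 had 184 CPM in the same mouse, against 152 to 155 in the others. In all, 56 groups of 5 values were searched, and at 1 in 20 chance alone gives 2.8 such values, so the number found is near what chance gives. None of the 3 was found in Pax7Cre mouse 2.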

How the results depend on the processing

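No complement gene had an adjusted p under 0.05 in any of the 9 other fits or with any 1 mouse left out. At an unadjusted p under 0.05 the members called numbered 0 in those 9 fits and 0 to 2 with 1 mouse left out (C3 and C4b without Pax7Cre mouse 1, C1s1 without Pax7Cre mouse 4). The count over all genes without Pax7Cre mouse 1 is not given here, so the 2 members called in that fit have no background beside them. The count of other complement genes, 2 in the main test, was 1 with DESeq2's Wald test and 1 with the replicate block, and 0 to 3 with 1 mouse left out (0 without miR-501KO mouse 1, 3 without Pax7Cre mouse 4 and 1 without each of the others). Leaving out each mouse turned the sign of C1qa (log2 fold change -0.032 to 0.11), C1qb (-0.034 to 0.12) and C1qc (-0.059 to 0.12), and of the log2 ratio differences C1qb/C1qa (-0.021 to 0.018), C1qc/C1qa (-0.044 to 0.030), C1qc/C1qb (-0.024 to 0.037) and Cfb/C2 (-0.12 to 0.026). The other 6 members kept a negative log2 fold change in all alternatives run. All genes at an unadjusted p under 0.05, 151 in the main test, numbered 312 with no filter, 453 without Pax7Cre mouse 2, 470.0 without Pax7Cre mouse 4 and 98 without miR-501KO mouse 1.

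The correlations called, 4 of 18, numbered 2 to 5 with 1 mouse left out, 2 in 6 of those 10 settings (without Pax7Cre mouse 1, 4 or 5 and without miR-501KO mouse 1, 2 or 5), 5 without Lyz2 and 7 with the fibroblast list without collagens. With the macrophage sum, C1qc lost its call in 8 of the 10 settings, C1ra in 6 and C1qb in 1. Correlations with the fibroblast sum were small over the 10 mice and changed sign. As a mean of log2 CPM, r was -0.590 for C1qa, -0.721 for C1qb, -0.785 for C1qc (adjusted permutation p = 0.0260), 0.504 for C4b, 0.395 for C1ra, 0.587 for C1s1, 0.650 for C2, 0.685 for C3 and 0.505 for Cfb, and by rho Cfb (0.867, adjusted permutation p = 0.0203), C2 (0.782, 0.0286), C3 (0.758, 0.0331) and C4b (0.733, 0.0399) passed. Without collagens in the sum, r was 0.321 for C4b, 0.579 for C1ra, 0.895 for C1s1, 0.681 for C2, 0.595 for C3 and 0.513 for Cfb. With the 2 farthest mice also left out, these values were -0.399, 0.230, 0.752, 0.0023, -0.203 and -0.385 in the same order. With 1 mouse left out, r ran from -0.470 to 0.219 for C1qa, -0.545 to 0.156 for C1qb, -0.415 to 0.205 for C1qc, -0.402 to 0.700 for C1ra, -0.489 to 0.318 for C1s1, -0.339 to 0.632 for C2, -0.127 to 0.897 for C4b, -0.302 to 0.866 for C3 and -0.591 to 0.600 for Cfb, with Pax7Cre mouse 2 left out at the upper end for the last 6. The cause was not tested.

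The mouse numbers are no pairs in the labels, and same-numbered mice correlated between -0.30 and 0.34 in their deviations from the group means, each best with its own number in 3 of 5. With the replicate block, 0 members were called, the log2 fold change of C3 was -0.41, and 189 genes in all had an unadjusted p under 0.05. With 5 mice a genotype, the 95% intervals of the log2 fold change, from -0.28 to 0.098 for C2, the narrowest, and from -1.13 to 0.065 for C3, the widest, limit what was detectable.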
